A study of Mus musculus with 12 samples.

Results

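A set of 357 array probes was higher in mouse lung tumors 24 h after a mutant oncogene was switched off and was back near its starting level by 48 h. The set was chosen by its measured values, from 21232 probes detected on at least 4 of 12 arrays (1.68% of them) and 45281 probes on the array. A member had a mean at 24 h at least 1 above the mean with the oncogene on, a mean at 48 h less than 0.5 above it, and all 4 values at 24 h above all 4 values with the oncogene on. Values are the authors' log2 intensities, so a difference of 1 is a doubling. The difference of the 24 h mean from the on mean is called the rise, that of the 48 h mean the remainder. GEO's platform annotation gave 1 gene for 317 of the member probes and 265 genes in all, and the other 40 probes are unnamed here.

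The tumors were microdissected from the lungs of FVB/SV129 mice that were 19 weeks old. In 4 samples the mutant oncogene was on (called on below), in 4 it had been off for 24 h and in 4 for 48 h. All 3 groups carried the mutant oncogene. The agent and the promoter or cell type behind the switch are not given in the labels, nor is it said whether each sample came from its own mouse, so the p-values below measure the spread between these samples, which may be technical.

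Many of the named members are known from cells other than the epithelium. Haemoglobin chains are made by red cell precursors and carry oxygen in the blood. Macrophages and other myeloid cells patrol the air spaces and the lung wall, carry lectins, Fc receptors and paired activating and inhibitory receptors on their surface, and clear dying cells. Fibroblasts lay down collagen and elastic-fibre proteins around vessels and alveoli, and endothelial and mural cells form the vessel wall and set its tone. In bulk tissue, more cells of a type and more RNA per cell cannot be told apart.

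To describe the set, 109 named genes (144 probes) were put into 5 groups by the cells they are known for, after their values had been seen. The groups were 5 genes of haemoglobin and haem synthesis, 43 of macrophages and other myeloid cells, 12 shared by leukocytes, 33 of matrix and fibroblasts, and 16 of the vessel wall. They are descriptions, and no test was made over them.

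Promoter sequence was printed for genes of these groups whose 250 bases before the transcription start held a motif chosen for their group. Of these, the genes with the largest rise were taken. For the vessel wall the motif was the same as for the matrix genes, and none particular to vessel cells was searched. The sequences are from RefSeq on build GRCm38.p6, in the direction of transcription, with the motif in capitals. The Hbb-bs window lies on the minus strand at chr7:103827929-103828178, and its capitals mark the GATA motif AGATAAG and the CACCC box CACACCC, bound in red cell precursors. S100a8 lies on the plus strand at chr3:90668821-90669070 and Pira1 on the minus strand at chr7:3739918-3740167, and their capitals mark the core of the site of the myeloid factor PU.1, GAGGAAG or its reverse complement. The windows of Pcolce2 (plus strand, chr9:95637378-95637627), Inmt (minus strand, chr6:55174991-55175240) and Gucy1a1 (minus strand, chr3:82145651-82145900) carry the E-box CAGCTG, the kind of site bound by the mesenchymal factor TCF21, whose own gene is a member. Motifs named for other groups stay in lower case. CAGCTG also lies in the S100a8 window, and CACACCC in that of Pira1.
Hbb-bs: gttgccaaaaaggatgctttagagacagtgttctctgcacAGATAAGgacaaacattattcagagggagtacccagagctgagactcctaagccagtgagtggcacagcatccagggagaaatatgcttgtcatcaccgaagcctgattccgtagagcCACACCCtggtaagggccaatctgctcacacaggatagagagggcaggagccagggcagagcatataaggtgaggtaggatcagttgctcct
S100a8: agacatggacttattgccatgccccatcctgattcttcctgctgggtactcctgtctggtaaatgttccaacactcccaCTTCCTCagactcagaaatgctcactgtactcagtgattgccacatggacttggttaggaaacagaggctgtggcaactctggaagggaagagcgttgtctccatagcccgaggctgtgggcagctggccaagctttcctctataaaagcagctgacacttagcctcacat
Pira1: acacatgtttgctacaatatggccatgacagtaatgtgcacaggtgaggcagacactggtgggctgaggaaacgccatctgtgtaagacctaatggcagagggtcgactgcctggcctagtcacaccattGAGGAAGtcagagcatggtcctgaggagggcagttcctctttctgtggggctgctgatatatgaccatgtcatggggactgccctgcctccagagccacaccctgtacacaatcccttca
Pcolce2: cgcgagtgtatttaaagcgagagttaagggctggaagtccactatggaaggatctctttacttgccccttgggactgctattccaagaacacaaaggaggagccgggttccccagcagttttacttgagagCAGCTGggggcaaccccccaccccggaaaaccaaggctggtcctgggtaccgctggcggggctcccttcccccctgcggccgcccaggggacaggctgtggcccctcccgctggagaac
Inmt: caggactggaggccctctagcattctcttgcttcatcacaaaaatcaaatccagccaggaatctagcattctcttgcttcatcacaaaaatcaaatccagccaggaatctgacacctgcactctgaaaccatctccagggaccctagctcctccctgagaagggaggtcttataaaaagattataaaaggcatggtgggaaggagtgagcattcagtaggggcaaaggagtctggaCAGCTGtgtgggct
Gucy1a1: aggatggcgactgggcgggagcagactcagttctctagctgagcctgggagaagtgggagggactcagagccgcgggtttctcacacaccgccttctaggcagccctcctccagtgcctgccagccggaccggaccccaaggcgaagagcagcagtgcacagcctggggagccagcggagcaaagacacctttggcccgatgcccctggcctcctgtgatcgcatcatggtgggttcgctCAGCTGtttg

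Of the 265 member genes, 190 had 256 such windows in the table. Motifs were searched on both strands in these windows and in all 32851 windows of the table. GAGGAAG was present in 11 of the 38 windows of the myeloid genes (28.9%), in 17.2% of the windows of all members and in 10.6% of all windows. It was also in 3 of 12 windows of the vessel wall genes (25%) and in 1 of 11 of the genes shared by leukocytes (9.09%). CAGCTG was found in 6 of 28 windows of the matrix and fibroblast genes (21.4%), 4 of 12 of the vessel wall genes (33.3%), 19.5% of the members' windows and 13% of all windows. The AP-1 motif TGAGTCA was in 4.3% of the members' windows and 4.46% of all windows. The GATA motif AGATAAG was in 2.73% and 2.74%, and the CACCC box CACACCC in 10.9% and 6.93%. Each of these was in 1 of 4 windows of the genes of haemoglobin and haem synthesis. The TATA box TATAAA was in 10.5% of the members' windows and 12.4% of all windows. These letters do not overlap one another's motifs, and a match describes the sequence only.

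The median member read 1.29 higher at 24 h than with the oncogene on, which is 2.45-fold, with a middle range of 1.13 to 1.59 and extremes of 1.00 and 6.17. A rise of 2 or more was seen in 41 members and of 3 or more in 4. At 48 h the median member lay 0.11 above on, with a range from -1.90 to 0.50, and 134 of the 357 had a mean below on. Over all detected probes the medians of the same differences were -0.02 at 24 h and -0.01 at 48 h. These differences chose the members and are given as a description.

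The thresholds cut through a continuum. The lowest rises inside were 1.00 for Ces2g, a carboxylesterase gene, and 1.00 for a probe unnamed here, ILMN_2728134. Just outside lay probes of Trem2, a myeloid receptor, and of Tbx3, a T-box factor, both at 1.00 and short of the threshold only in the last digits of the computed means. Tmem204 and Aqp1, the water channel aquaporin-1, had a remainder of 0.50 at 48 h and were members. Crispld2 at 0.50 and Gucy1a2, a guanylate cyclase subunit, at 0.51 were not.

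Array by array, the median member lay 0.22, -0.02, 0.01 and -0.18 from the on mean on the 4 on arrays. It lay 1.45, 1.12, 1.22 and 1.52 above it on the 24 h arrays and -0.02, -0.16, 0.08 and 0.46 from it on the 48 h arrays. Each of the 24 h arrays stood apart from the other 8, which is close to fixed by the rule. Of the 48 h arrays, replicate 4 kept the most of the rise. That replicate was the highest of the 4 arrays at 48 h for 227 of the 357 members.

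**Figure D1:**
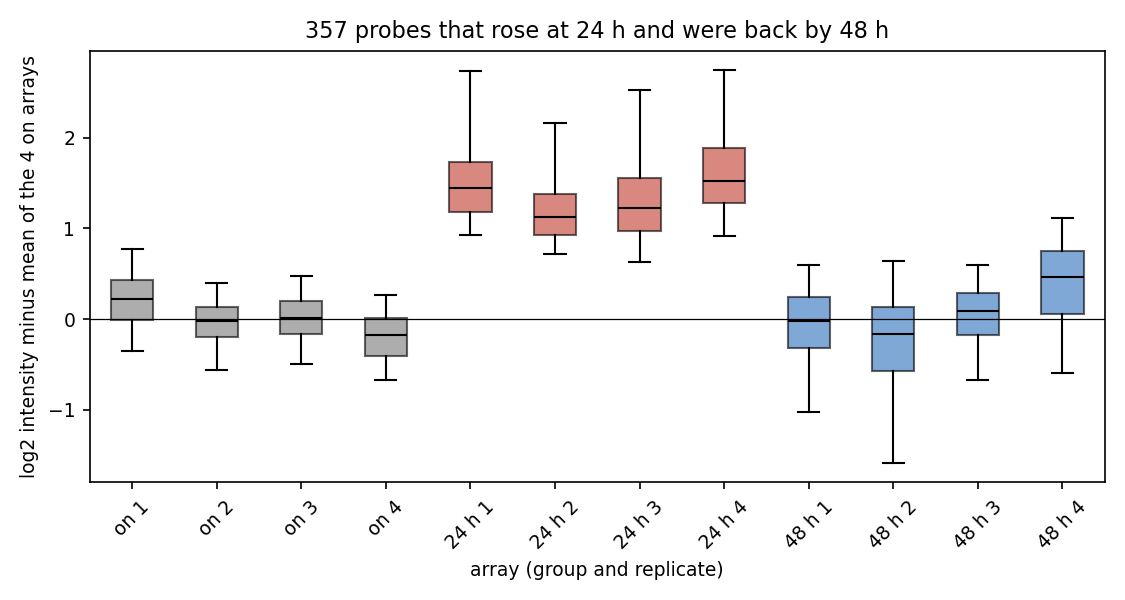
Log2 intensity of the 357 members minus each probe's mean over the 4 on arrays, for each of the 12 arrays (boxes span the quartiles with the median, whiskers reach the 5th and 95th percentiles). The medians of the 4 arrays at 24 h lie between 1.12 and 1.52, and those of the other arrays between -0.18 and 0.46.

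The arrays lay on 2 BeadChips of 6. One carried all on arrays with replicates 1 and 2 of 48 h. The other carried all 24 h arrays with replicates 3 and 4 of 48 h, so the rise from on to 24 h has no value within a chip. Within the chip of the 24 h arrays the median member was 1.08 higher at 24 h than at 48 h, and 356 of the 357 were higher, against 49.2% of all detected probes. The rule used these 48 h arrays too, so this count is close to fixed by it and nothing is read from it. Within the chip of the on arrays it was -0.06 at 48 h relative to on. Fitting the chip as a term gave a median rise of 0.96. Between 42.5% and 46.2% of probes were detected on an array, with a median of 44 beads a probe. Xist, the RNA of the inactive X chromosome, was low on on replicates 1 and 4 and 24 h replicate 4 and high on the other 9 arrays. On those 9 arrays alone, an alternative added after seeing the data, the rule found 340 probes, 237 of them members, and the members' median was 1.28 at 24 h and 0.09 at 48 h.

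A limma fit across all 21232 detected probes, with adjusted p below 0.05 as the call, gives the background for the counts. For 24 h against on, 11.5% of the probes were called as higher and 12.2% as lower. The shares for 48 h against on were 9.66% and 11.0%, and those for 48 h against 24 h were 12.9% and 13.8%. With a term for the chip, 66 probes were called as higher and 60 as lower for 24 h against on, so the chip bears on every 24 h call given below. With the chip as a random block, 2260 were called as higher and 2371 as lower. The chip correlation of that fit was 0.012, estimated from only 2 chips. Of the members, 347 (97.2%) were called as higher for 24 h against on, and 335 (93.8%) as lower for 48 h against 24 h. The rule fixed both counts, and nothing is read from them. In 294 members (82.4%) all 4 values at 48 h lay below all 4 at 24 h, against 13.3% of all probes, which the rule also favours. For 48 h against on, 3 members were called as higher and 7 as lower.

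Of the 357 members, 354 were detected on all 4 arrays at 24 h, 226 on all 4 on arrays and 209 on all 12. Another 56 were undetected on all 4 on arrays, and for these the rise is only a bound. The bound sets the mean at 24 h against, on each on array, whichever was larger, the lowest value of any detected probe or that of the probe itself. It reached 2-fold in 15 of the 56 and lay between 1-fold and 2-fold in the other 41, with a median of 1.67-fold. With these 56 at their bound, the median rise of the members was 1.23.

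BC018473 had the largest rise of all. Its log2 intensity was 3.40, 3.28, 3.36 and 3.36 on the on arrays, 8.72, 10.57, 9.57 and 9.23 at 24 h and 3.07, 3.61, 3.32 and 3.24 at 48 h. It was undetected on all on and all 48 h arrays and detected on all 4 arrays at 24 h. The 24 h level was at least 29.8-fold that of the on arrays and at least 31.5-fold that of the 48 h arrays. The next largest bound among members undetected on the on arrays was 4.38-fold, for Dpep1. Slc7a10, a transporter of small neutral amino acids, was also undetected in the on group and was at least 3.39-fold higher at 24 h.

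The genes of haemoglobin and haem synthesis had the largest median of the 5 groups. Its 12 probes had a median rise of 2.14 (4.41-fold) at 24 h, and all 12 had a mean below on at 48 h, with a median of -0.72. Hbb-bt, an adult beta-globin gene, read 8.68, 9.44, 9.27 and 8.34 with the oncogene on, 11.77, 10.51, 11.90 and 11.13 at 24 h and 7.47, 8.34, 7.59 and 9.95 at 48 h. The 24 h values all lay above both other groups. At 48 h replicate 4 stood above the highest on value and the other replicates at or below the lowest. Another tested Hbb-bt probe, no member, had an on mean of 4.69, a rise of 0.72 and a remainder of 0.18. Its values at 24 h overlapped those of the on arrays.

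The adjacent gene Hbb-bs, whose promoter is printed above, was a member through 6 probes with rises of 1.73 to 2.48. Its most responsive probe read 6.85, 7.26, 7.08 and 6.37 with the oncogene on, 10.01, 8.38, 10.19 and 8.91 at 24 h and 5.53, 6.37, 5.75 and 7.88 at 48 h. Hba-a1, an alpha-globin gene, had a rise of 1.87 and a remainder of -0.75. Alas2, the first enzyme of haem synthesis in red cell precursors, was 1.26 higher and had a 48 h mean of -0.25 relative to on. Beta-globin genes are near-identical copies, so which of them a probe measured is uncertain.

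Their values were spread widely between tumors of one group. At 24 h the group's median lay 2.67, 1.29, 2.65 and 1.91 above the on mean in replicates 1 to 4, and at 48 h it lay at -1.74, -0.60, -1.43 and 0.95. Without 48 h replicate 4, the 48 h remainder of the Hbb-bt member probe given above went from -0.60 to -1.13. The erythroid and platelet list has 7 tested genes, of which Hba-a1 and Alas2 are members. The summed linear intensity of the other 5 was 410 to 663 with the oncogene on, 288 to 502 at 24 h and 198 to 464 at 48 h, and these ranges overlapped. These 5 genes are Slc4a1 and the platelet genes Pf4, Ppbp, Itga2b and Gp9, so Slc4a1 alone stands for red cells. Of the 5, 0 were called in either direction at 24 h by limma, and 0 had an unadjusted p below 0.05. Slc4a1, the red cell anion exchanger, had low levels of 4.66, 4.78 and 4.72 in the fit's normalized log2 intensities in the 3 groups (0.12 higher at 24 h, SE 0.18, limma adjusted p = 0.679). The part of blood content in these values was not tested.

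**Figure D2:**
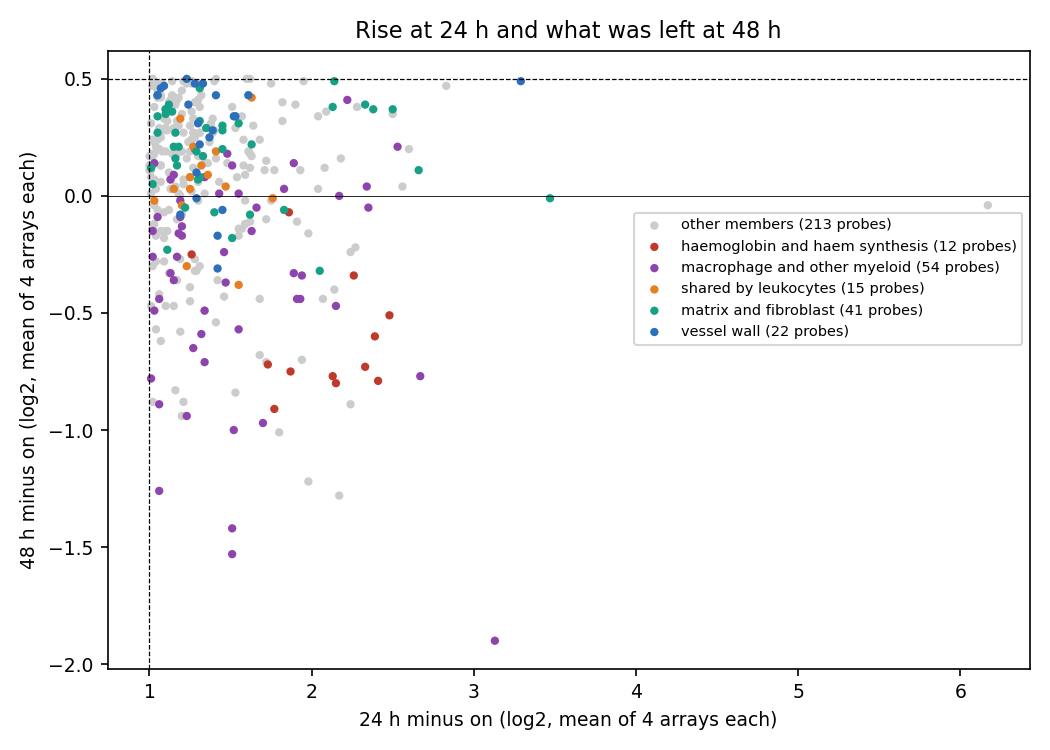
Difference of the 24 h mean from the on mean (x axis, log2) against the same difference at 48 h (y axis, log2) for the 357 members, coloured by the 5 descriptive groups, with the thresholds of 1 and 0.5 dashed. All 12 haemoglobin and haem probes and 38 of the 54 myeloid probes lie below 0 at 48 h, while 50 of the 63 probes of the matrix and vessel wall groups lie above it.

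Genes of macrophages and other myeloid cells formed the largest group, 43 genes with 54 probes. Their median rise was 1.38 (2.6-fold), and at 48 h 38 of the 54 probes had a mean below on, with a group median of -0.25. Chil3, a chitinase-like protein secreted by alveolar macrophages, had the largest rise of them. One of its probes read 8.59, 7.49, 7.79 and 6.68 with the oncogene on, 10.85, 10.71, 10.30 and 11.22 at 24 h and 6.20, 3.41, 7.05 and 6.29 at 48 h. The 24 h values lay above all others, and 3 of the 4 values at 48 h lay below the lowest on value. The other member probes of Chil3 had rises of 1.06 each and were 1.26 and 0.89 below on at 48 h. Its neighbour Chil4 had a rise of 1.51 and a remainder of -1.53. The similarity of these genes leaves the source of each signal uncertain. The drop of Chil3 at 48 h was largest in replicate 2, and without it the 48 h value was -1.12 in place of -1.90.

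Other secreted and surface proteins of myeloid cells were members too. S100a8, a subunit of calprotectin abundant in neutrophils and monocytes, read 7.28, 6.23, 6.95 and 6.32 with the oncogene on, 8.59, 8.96, 8.59 and 10.04 at 24 h and 5.69, 7.43, 6.14 and 7.30 at 48 h. The on and 48 h values overlapped. Its partner S100a9 was 1.89 higher at 24 h and 0.14 above on at 48 h. Ccl6, a chemokine of myeloid cells, was 1.51 higher at 24 h and at -1.42 at 48 h. Clec7a, the beta-glucan receptor dectin-1, was 2.15 higher at 24 h and -0.47 at 48 h. The member probe of Il1rn, which encodes the interleukin-1 receptor antagonist, was undetected on the on arrays and at least 2.94-fold higher at 24 h. Another Il1rn probe, no member, had a mean of 6.96 on the on arrays and was 0.54 higher at 24 h.

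Signalling receptors and adaptors were part of the group. Tyrobp, the adaptor of activating myeloid receptors, read 8.06, 7.42, 7.59 and 7.09 with the oncogene on, 9.47, 9.28, 9.65 and 9.53 at 24 h and 7.41, 6.28, 7.42 and 7.68 at 48 h. Its 24 h values spanned less than those of either other group. Sirpb1a, an activating receptor of the SIRP family, was 2.67 higher at 24 h and -0.77 at 48 h, and Sirpa, its inhibitory relative, 1.91 and -0.44. Csf1r, the receptor of the macrophage growth factor, was 1.43 higher at 24 h and 0.01 from on at 48 h. Adgre1, which encodes a surface receptor that marks macrophages, was 1.46 higher and then at -0.24. The leukotriene pathway genes Alox5 and Alox5ap had rises of 1.27 and 1.47, and Tbxas1, thromboxane synthase, of 1.19. The rise was 1.51 for Ctss, a cathepsin gene. Gpnmb, a lysosomal glycoprotein of phagocytes, had a rise of 2.17 on its member probe and of 0.40, 0.86 and 0.17 on 3 other tested probes, of which the one at 0.86 was the brightest.

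Lysozyme varied most between tumors at 48 h among these examples. One probe of Lyz1 read 9.96, 8.40, 10.21 and 8.77 with the oncogene on, 12.07, 11.69, 11.95 and 11.77 at 24 h and 7.28, 7.58, 14.06 and 9.27 at 48 h. Its mean at 48 h was 0.21 above on with all replicates and -1.29 without replicate 3, so that array alone sets the sign. The second member probe did the same, at 0.41 and -0.72. A further probe of Lyz1 that is no member had means of 14.76 (on), 14.73 (24 h) and 14.75 (48 h) in the authors' values. It read between 14.61 and 14.82 on every array, and whether a probe this bright could show a rise was not tested. Lyz1 and Lyz2 are close copies expressed in different cells, and which gene each probe measured is uncertain.

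The 12 genes shared by leukocytes had a median rise of 1.27 (2.41-fold) and a remainder of 0.04 at 48 h. They include Ptprc, the leukocyte antigen CD45, which was 1.32 higher at 24 h and 0.13 above on at 48 h. Coro1a, an actin regulator of blood cells, was 1.76 higher, Cd52, a leukocyte surface glycopeptide, 1.63 higher, and the integrin genes Itgb2 and Itgal 1.55 and 1.25 higher.

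Of the 10 tested genes of the macrophage and monocyte list that are no members, 1 was called as higher at 24 h and 0 as lower by limma (3 and 0 at an unadjusted p below 0.05), beside 11.5% and 12.2% of all probes. The share called as higher is near that background, and 0 of the 10 were called with a chip term, with a median difference of 0.03 at 24 h. The complement genes C1qa and C1qb, expressed by tissue macrophages, differed by 0.26 (SE 0.18, limma adjusted p = 0.318) and 0.27 (SE 0.19, limma adjusted p = 0.32). Mrc1, the mannose receptor, differed by 0.73 at 24 h (SE 0.27, limma adjusted p = 0.0734) and was at -1.64 at 48 h relative to 24 h (SE 0.27, limma adjusted p = 0.00208). The summed linear intensity of these 10 genes was 5120 to 6670 with the oncogene on, 7410 to 8600 at 24 h and 4690 to 6560 at 48 h, and the 24 h range overlapped neither of the others. With a chip term Mrc1 differed by 0.00 at 24 h (limma adjusted p = 0.998). Ccr2 and Siglecf were on the array and not detected on enough arrays to be tested. On the neutrophil list, 1 of 8 genes that are no members was called as higher at 24 h and 0 as lower by limma (1 and 1 at an unadjusted p below 0.05). That share of higher calls is also near the 11.5% of all probes. Of the T cell list 0 of 8 were called by limma, with 2 higher and 1 lower at an unadjusted p below 0.05.

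**Figure D3:**
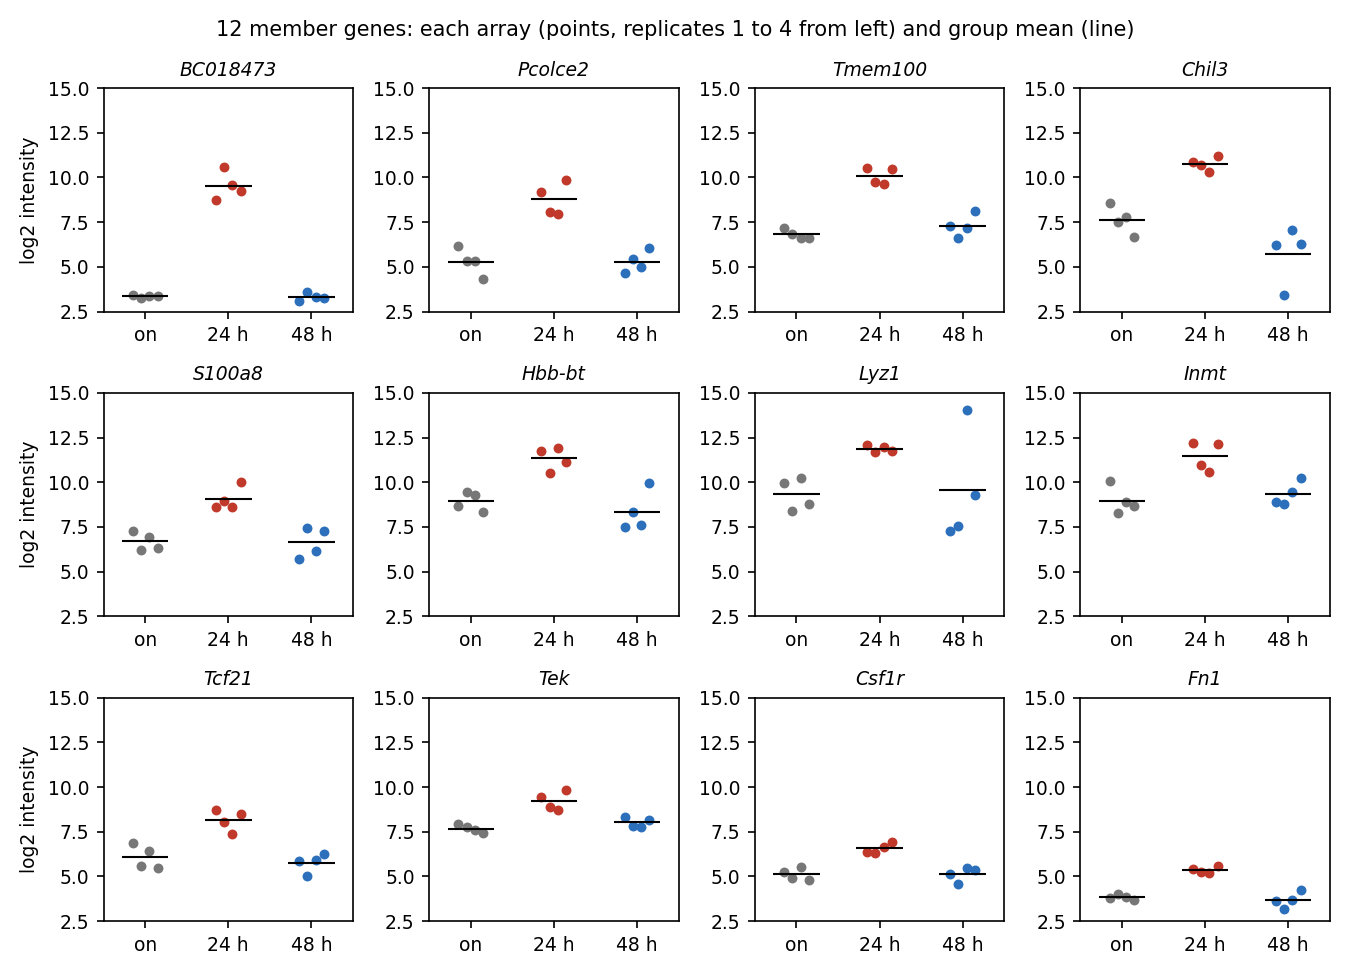
Log2 intensity of 12 member genes on each array (points, replicates 1 to 4 from left to right) with the mean of each group (line). In every panel all 4 points at 24 h lie above all 4 on points, which the rule required. Lyz1 at 48 h has 1 point at 14.06 above the others.

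Genes of the matrix and of fibroblasts, 33 genes with 41 probes, had a median rise of 1.31 (2.48-fold) and kept 0.22 at 48 h. Pcolce2, an enhancer of procollagen processing, had the second largest rise of all named members. It read 6.19, 5.32, 5.35 and 4.31 with the oncogene on, 9.19, 8.04, 7.98 and 9.85 at 24 h and 4.65, 5.43, 5.01 and 6.04 at 48 h. The 24 h values lay well clear of the rest, while on and 48 h values overlapped. A second probe of Pcolce2 was 2.66 higher at 24 h and 0.11 above on at 48 h. Inmt, a methyltransferase abundant in lung fibroblasts, read 10.07, 8.30, 8.88 and 8.66, then 12.21, 10.97, 10.60 and 12.13, then 8.89, 8.79, 9.43 and 10.26. Another, brighter Inmt probe (on mean 11.02) had a rise of 2.24 and a remainder of 0.57, which left it out.

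Transcription factors of lung mesenchyme were among these genes. Tcf21, which marks lipofibroblasts and other mesenchymal cells of the lung, read 6.88, 5.56, 6.45 and 5.49 with the oncogene on, 8.69, 8.03, 7.37 and 8.50 at 24 h and 5.86, 5.05, 5.91 and 6.28 at 48 h. Its 48 h mean was 0.32 below on. Meox2, a homeobox factor of mesoderm, was 1.35 higher at 24 h, and Snai2, a zinc-finger factor of mesenchymal cells, 1.05 higher. Pdgfra, a growth factor receptor of fibroblasts, was 1.05 higher and kept 0.27 at 48 h.

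Structural genes ranged from collagens to elastic-fibre proteins. Fn1, fibronectin, read 3.81, 4.02, 3.85 and 3.71 with the oncogene on, 5.39, 5.25, 5.2 and 5.59 at 24 h and 3.62, 3.16, 3.67 and 4.22 at 48 h. This probe was undetected on all on and all 48 h arrays, so the 24 h level was at least 1.66-fold that of on and at least 1.75-fold that at 48 h. Another Fn1 probe had a rise of 1.11 and was -0.23 at 48 h. Col3a1 and Col6a2, chains of collagens III and VI, had rises of 1.30 and 1.10. Col6a1, another chain of collagen VI, had rises of 1.45 and 1.16 on its member probes detected on the on arrays, and another member probe, undetected there, was at least 1.97-fold higher. Lox, which crosslinks collagen and elastin, had one of 1.33, and the microfibril genes Mfap2 and Mfap5 of 1.55 and 1.40. The signalling genes were Vegfd, a lymphangiogenic growth factor, at 2.14, and Fgf7, a growth factor for epithelium, at 1.05.

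Of the 6 tested genes of the fibroblast list that are no members, 4 rose at 24 h and 0 fell by limma (6 and 0 at an unadjusted p below 0.05). At 48 h, 2 were above on, and 1 was below its 24 h level. With a chip term 0 of the 6 were called, with a median difference of 1.05 at 24 h. Their summed linear intensity was 764 to 1290 with the oncogene on, 2100 to 3010 at 24 h and 1160 to 2070 at 48 h. The 24 h range lay above both others. Mfap4, an elastic-fibre protein, was 3.12 higher at 24 h (SE 0.32, limma adjusted p = 0.000143, and 0.0537 with a chip term) and missed membership by its 1.02 left at 48 h. Of the 16 such genes of the list for extracellular matrix and remodelling, 7 rose at 24 h and 0 fell by limma (9 and 1 unadjusted), and 0 were called with a chip term. Mmp2, a gelatinase made by fibroblasts, was 1.95 higher (SE 0.23, limma adjusted p = 0.000303, and 0.081 with a chip term).

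Vessel wall genes, 16 with 22 probes, had a median rise of 1.32 (2.5-fold) and kept the most at 48 h, a median of 0.34. Tmem100, an endothelial target of BMP signalling, read 7.17, 6.81, 6.63 and 6.63 with the oncogene on, 10.55, 9.76, 9.61 and 10.47 at 24 h and 7.29, 6.59, 7.18 and 8.12 at 48 h. The highest value outside 24 h was that of 48 h replicate 4. Another probe of Tmem100 had a rise of 2.31 and a remainder of 0.52, which left it out. The rise was 1.39 for Acvrl1, a BMP receptor of endothelium. Bmp6, a ligand of that family, was undetected on the on arrays and at least 1.19-fold higher at 24 h.

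Both sides of a vessel signalling pair were members. Tek, the endothelial receptor TIE2, read 7.92, 7.77, 7.59 and 7.43 with the oncogene on, 9.42, 8.87, 8.70 and 9.81 at 24 h and 8.31, 7.81, 7.78 and 8.18 at 48 h. Angpt1, its ligand made by mural cells, read 4.69, 3.99, 4.26 and 4.27, then 5.94, 5.30, 5.0 and 6.77, then 3.95, 4.13, 4.27 and 4.60. For both, replicates 1 and 4 were the highest at 24 h. Genes of vascular tone were members as well. Gucy1a1 and Gucy1b1, the subunits of the nitric oxide receptor guanylate cyclase, had rises of 1.53 and 1.41. Ace, the angiotensin-converting enzyme, had a rise of 1.42, and Agtr1a, an angiotensin II receptor, one of 1.37.

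Of the 10 tested genes of the endothelial list that are no members, 9 rose at 24 h and 0 fell by limma (9 and 0 unadjusted). With a chip term 1 of them was called as higher and 0 as lower, with a median difference of 0.70. At 48 h, 7 were above on and 1 below it, and 5 were below their 24 h level. Cdh5, the endothelial cadherin, was 1.19 higher at 24 h (SE 0.19, limma adjusted p = 0.00134, and 0.191 with a chip term) and 0.63 higher at 48 h (limma adjusted p = 0.0339). Pecam1, an adhesion molecule of endothelium, was 0.99 higher at 24 h (SE 0.19, limma adjusted p = 0.004, and 0.37 with a chip term), and its 0.42 at 48 h did not pass (limma adjusted p = 0.144). The summed linear intensity of these 10 genes was 6080 to 7920 with the oncogene on, 11000 to 15900 at 24 h and 9750 to 10300 at 48 h. Of the 9 such genes of the alveolar type 1 list, 6 rose at 24 h (1 with a chip term) and 6 were above on at 48 h. Cav1, the caveolin of endothelium and type 1 cells, was 1.74 higher at 24 h (SE 0.19, limma adjusted p = 0.000217, and 0.071 with a chip term) and 0.81 higher at 48 h. The smooth muscle list had no member. Of its 7 tested genes, 0 were called as higher and 0 as lower at 24 h by limma (0 and 1 unadjusted). Their median difference was 0.19, and the shares of all probes called were 11.5% and 12.2%.

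The alveolar type 2 list, which stands for the epithelium these lung tumors resemble, had no members. Of its 13 tested genes, 0 rose at 24 h by limma and 1 fell (1 and 1 at an unadjusted p below 0.05). Sftpc, a surfactant protein that defines type 2 cells, had levels of 14.12, 14.27 and 14.27 in the 3 groups in the fit (SE 0.10 of each difference, limma adjusted p = 0.324 at 24 h). Whether probes as bright as this could show a rise was not tested. The summed linear intensity of the list was 191000 to 195000 in the on group, 186000 to 194000 at 24 h and 155000 to 178000 at 48 h. The first 2 ranges overlapped and the last lay below both, and 5 of the 13 genes were called as lower for 48 h against on. The part of the tissue's cell makeup in the members' values was not tested.

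**Figure D4:**
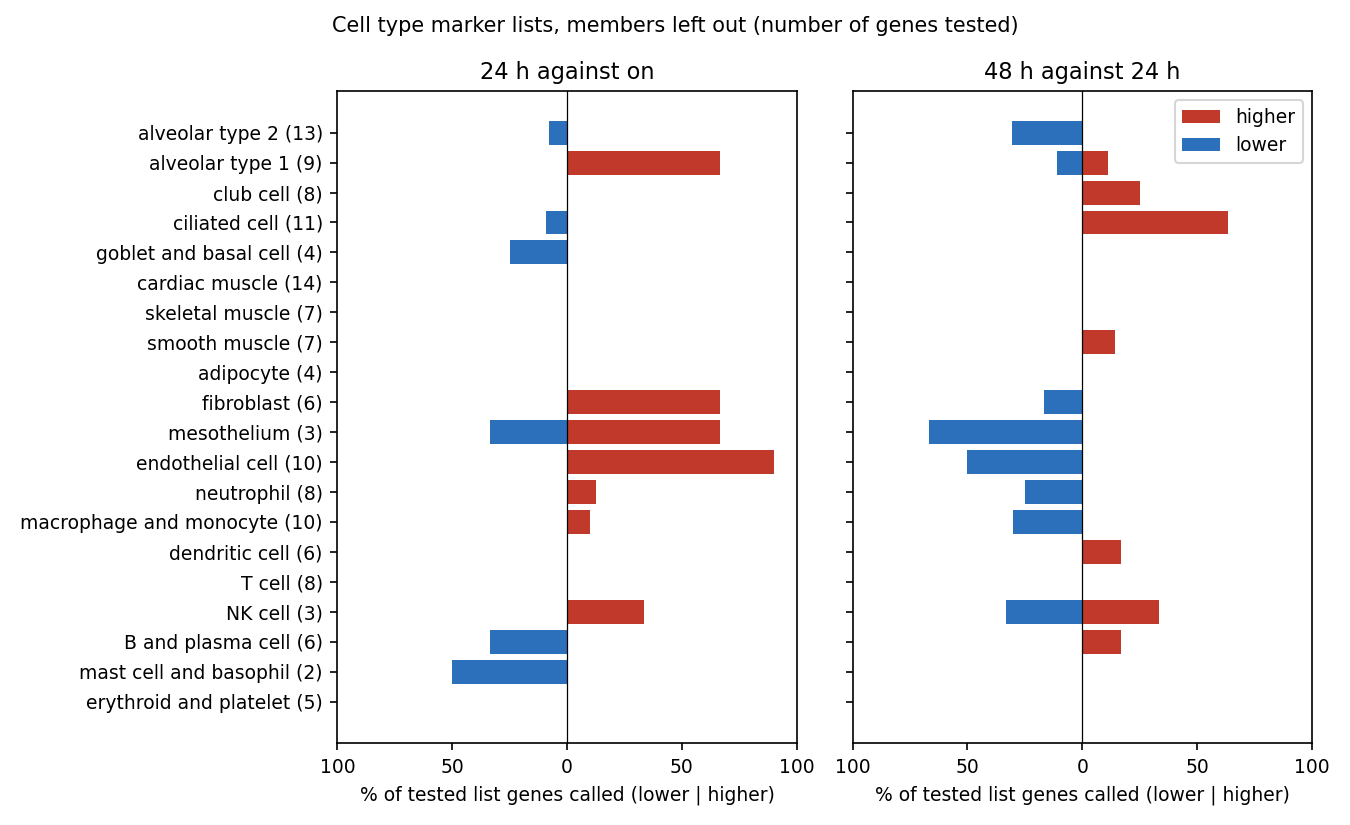
Share of the tested genes of each cell type list, members left out, that were called higher (red, right) or lower (blue, left) by limma at 24 h against on and at 48 h against 24 h. Numbers of genes stand in parentheses. The endothelial list has 9 of 10 called higher at 24 h (1 of 10 with a chip term). The erythroid and platelet list, left with Slc4a1 and platelet genes, has none called.

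The groups did not share one order of arrays. The matrix and fibroblast medians at 24 h were 1.49, 1.22, 1.2 and 1.55 in replicates 1 to 4 and those of the vessel wall 1.56, 1.01, 1.01 and 1.70, so replicates 1 and 4 were high in both. The myeloid medians were 1.45, 1.26, 1.47 and 1.48, with replicate 2 lowest. Across the 12 arrays, deviations from the group means of matrix and vessel wall medians had a Pearson correlation of 0.91. The value was 0.70 for haemoglobin and leukocyte medians, 0.65 for myeloid and vessel wall medians and 0.61 for myeloid and matrix medians. Every pair was positive, and the lowest was haemoglobin with myeloid medians at 0.14. Arrays share depth and dissection, so these correlations describe the arrays. At 48 h replicate 4 had the highest median in all 5 groups, at 0.95 for haemoglobin, 0.73 for matrix, 0.59 for vessel wall, 0.59 for leukocytes and -0.01 for myeloid genes. Of the myeloid medians, that of 48 h replicate 2 was the lowest, at -0.96.

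**Figure D5:**
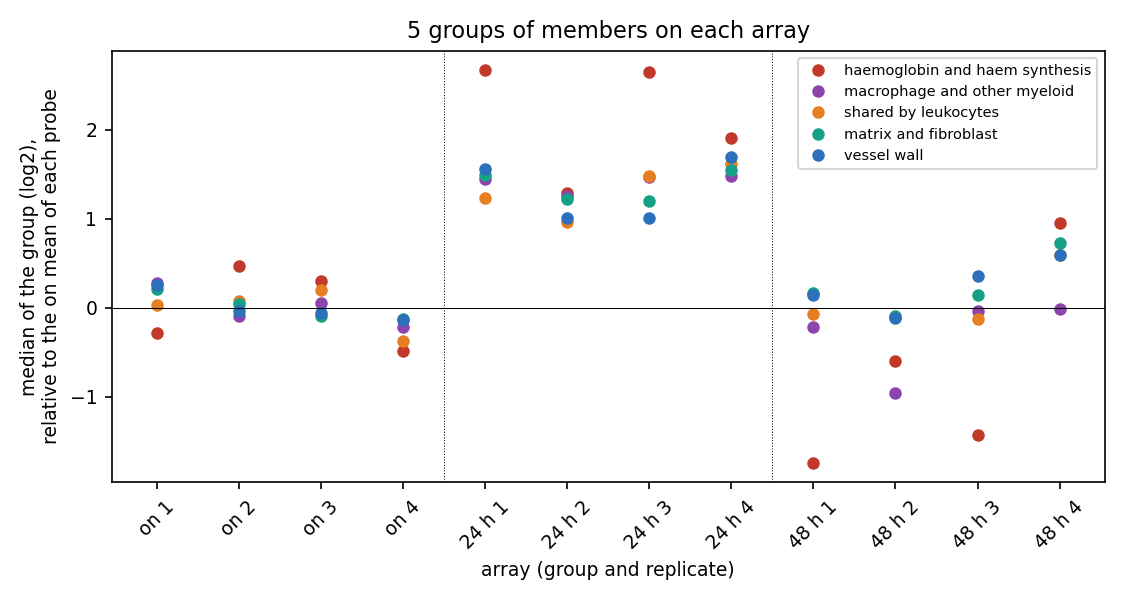
Median of each of the 5 groups of members on each array, relative to each probe's mean over the on arrays (log2). Haemoglobin and haem genes range from 1.29 to 2.67 at 24 h and from -1.74 to 0.95 at 48 h, and myeloid genes from 1.26 to 1.48 and from -0.96 to -0.01.

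Members outside the groups had varied roles. Dpep1, a membrane dipeptidase, was undetected on the on arrays, with the bound given above. Hpgd, the enzyme that inactivates prostaglandins, read 6.45, 5.89, 6.14 and 6.15 with the oncogene on, 9.06, 8.71, 8.03 and 9.09 at 24 h and 5.44, 6.07, 6.25 and 7.03 at 48 h. Igfbp2, a binder of insulin-like growth factors, was 2.24 higher at 24 h and -0.24 at 48 h. Kit, the receptor of stem cell factor, was 1.32 higher and kept 0.43. Pdpn, a membrane glycoprotein of type 1 cells and lymphatic endothelium, had a rise of 1.26, and Lpl, lipoprotein lipase, of 1.03. Phgdh, the first enzyme of serine synthesis, had a rise of 1.02 and a remainder of -0.88. Serping1, C1s1 and Plat, an inhibitor and a protease of complement and the tissue plasminogen activator, had rises of 1.18, 1.02 and 1.06. Ifit3, an interferon-induced gene, had one of 1.48. Of the 26 other tested genes of the interferon list, 4 rose at 24 h and 0 fell by limma (8 and 0 unadjusted), beside 11.5% and 12.2% of all probes. The share that rose is near that background, and 1 of the 26 was called with a chip term.

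Of the member genes, 40 had more than 1 member probe, and 95 had another tested probe outside the set. Those 131 other probes had a median difference of 0.74 at 24 h. A rise of 1 or more was seen in 27 of them, 0.5 to 1 in 67, 0 to 0.5 in 31 and a value below on in 6. Of the 27, 24 kept 0.5 or more at 48 h.

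Of the 260 member genes placed among protein-coding genes of GRCm38.p6, 67 (25.8%) lay within 5 places of another member, in 30 clusters. Of the 10939 other tested genes placed, 11.0% lay within 5 places of a member. Many clusters were of related copies: Hbb-bt with Hbb-bs and the group of Pira1, Lilra6, Lair1 and Lilra5 on chromosome 7, Chil3 with Chil4 and S100a8 with S100a9 on chromosome 3, and Col6a1 with Col6a2 on chromosome 10. Others joined genes of different families, such as Pdgfra with Kit on chromosome 5 and Inmt with Aqp1 on chromosome 6.

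The members varied more within a group than probes at large. The median SD over 4 arrays was 0.34 with the oncogene on, 0.32 at 24 h and 0.40 at 48 h for members, and 0.20, 0.20 and 0.21 for all detected probes. The range at 24 h was smallest for Alox5ap, Mtrex and Alox5 and largest for C7, an unnamed probe and Gsn. C7, a terminal complement component made by fibroblasts, spanned 5.53 to 7.87 at 24 h. It was undetected on the on arrays, and its 24 h level was at least 3.73-fold higher. Gsn, the actin-severing protein gelsolin, spanned 6.59 to 8.57 at 24 h and 4.25 to 6.20 in the on group.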

How the data were processed

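Total RNA of 12 tumor samples was hybridised to an Illumina mouse BeadChip, 1 array a sample, per the labels. The oncogene is not reported here. The deposited scanner table gives each probe's mean bead intensity, bead error, bead number (a plain count of beads) and detection p-value, per the file headers. Its software is not stated there, and 24 of its columns were not used. A second table deposited by the authors is on a log2 scale without a stated base or step. Taking 2 to the power of each value gave whole hundredths in 100% of cells (within 0.001 hundredths) with a median of 4.23 over all arrays, and each array's order of probes followed its scanner intensities (lowest rank correlation 0.999994 over probes). These restored values, read as log2 intensities, were used for the members.

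The members and gene lists were chosen with earlier results of these data known. Calls come from neqc intensities (offset 16) fitted with limma 3.58.1 in R 4.3.3, with 3 groups, 9 residual and 3.51 prior degrees of freedom, and Benjamini-Hochberg adjustment over 21232 probes. Detection means p below 0.05. Levels and adjusted p of list genes are from this fit, 1 probe a gene, that with the highest mean. Summed linear intensity adds 2 to the power of the authors' values over those probes, members left out. Per-list counts with a chip term, sums without members and medians at the bounds were added after seeing the data. Named genes follow a rule (largest rises, list members, members at the thresholds, smallest and largest ranges, genes with several probes, families), and other members were named after their values were seen. Gene names come from GEO's platform annotation, where 34885 probes had 1 gene, 18 several and 10378 none, and 34807 matched RefSeq by Entrez number. Replicate numbers did not pair samples (correlations of deviations -0.29 to 0.22). The fit was tested on simulated data. The number of arrays limits the precision. Figures used matplotlib 3.10.9. Alternatives covered background correction, normalization, filters, chip, replicate number and each array left out.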

Additional observations from a re-analysis of the deposited data

Results flagged for a closer look

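Of 207 groups of 4 values checked among the named members and related values, 8 values had a gap to their neighbour that took up most of the group's range (Dixon's 95% limit for 4 values), and chance flags about 1 in 20 such groups. Fam162b was high in on replicate 1 (5.18) and in 48 h replicate 4 (5.26). Chst3 was low in on replicate 4 at 3.37. At 48 h, Pdpn stood apart at 10.92, Col6a1 at 4.07, Phgdh at 3.59 and Fgf7 at 5.17. Ccl6 was low in 24 h replicate 1 at 9.59, a gap that is small in size because the other values lay between 9.80 and 9.82.

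The 24 h and 48 h groups differed from each other directly in 5664 probes by the limma contrast (2739 higher and 2925 lower at 48 h).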

How the results depend on the processing

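No alternative turned the sign of a rise of a named member: of 621 alternative values, 588 moved by less than 1 SD of the replicates, 33 moved by more and 0 reversed. The rule asked for a rise of at least 1 without overlap, so the lack of reversals is close to fixed by it and nothing is read from it. The rule found 357 probes, and 177 when applied to intensities with no background correction (149 of them members), where the median rise was 0.96 in place of 1.29. With neqc intensities it found 304, of which 275 were members. Leaving out each array in turn gave 330 to 439 probes, a median rise of 1.22 to 1.37 and a median at 48 h of -0.02 to 0.18.

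A fixed term for the chip gave a median rise of 0.96, and 126 probes in place of 5025 were called at 24 h against on and 1262 in place of 5664 at 48 h against 24 h. That fit rests on the 4 arrays at 48 h to tell chip from group. Within one chip, with fewer arrays, 2921 probes in place of 4390 were called at 48 h against on and 435 at 48 h against 24 h. Leaving out each array gave 3433 to 5122 calls at 24 h, 2810 to 4813 at 48 h and 3677 to 5882 between them, with the lowest counts without 24 h replicate 1, on replicate 2 and 48 h replicate 2. With a replicate block the counts were 4123, 3430 and 4718, and the median rise stayed at 1.29. Scaling to the 75th percentile gave 1917 higher and 2848 lower at 24 h, against 2435 and 2590.

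Signal over background limits the 56 members undetected in the on group, whose rise is a bound. The part of cell makeup and blood content in the members' values was not tested.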

Other observations

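Some genes fell between 24 h and 48 h without having been far above on. The cell cycle list had no member, and of its 25 tested genes 6 were called higher and 1 lower at 24 h against on, 0 higher and 8 lower at 48 h against on, and 18 lower and 0 higher at 48 h against 24 h by limma. At an unadjusted p below 0.05 the counts at 48 h were 0 higher and 16 lower against on, and 0 and 20 against 24 h. The median of the list was 0.20 at 24 h and -0.40 at 48 h, beside -0.02 and -0.01 over all probes. The cholesterol synthesis list, again with no member, had 2 of 12 called higher at 24 h and 11 of 12 lower at 48 h than at 24 h, with medians of 0.25 and -0.68 against on. The share of all probes called lower at 48 h than at 24 h was 13.8%. With a chip term, 0 genes of either list were called at 24 h against on. Over all probes that term left 1262 calls in place of 5664 at 48 h against 24 h. The counts of these lists at 48 h against 24 h were not made with it.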
